A study of Mus musculus with 13 samples.

Results

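Cells that divide copy their DNA and then share out the copies, and most of the machinery for both steps is made only when it is needed. The 44 proliferation genes described here were taken by symbol from a list of cell cycle genes, and all 44 were found among the 39171 genes of the deposited expression table. They fall into 6 role groups. There are 8 genes of G1 and G1/S control (cyclins and kinases that commit a cell to division), 10 of origin licensing and the replication fork (loading and running the DNA helicase), 3 of deoxynucleotide supply, 7 of mitotic entry, 13 of chromosomes, kinetochore and spindle, and 3 of mitotic exit. As background, D-type cyclins with their kinases lift the block that the retinoblastoma family puts on E2F factors, which then switch on the genes of S phase. The genes of G2 and mitosis are switched on later through the MuvB complex with B-Myb and Foxm1, and in resting cells the DREAM complex keeps them silent. Microglia divide in the tissue after birth as they colonise the cord, and astrocytes divide locally in the early postnatal weeks before most leave the cycle.

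RNA was sequenced from cells sorted from the spinal cord of C57BL/6 mice, in 13 libraries. Astrocytes carried a green fluorescent reporter of Aldh1l1, a gene of that cell type. Microglia, the macrophages that live in the tissue, were sorted by CD11b, a surface protein that other myeloid cells carry too. The mice were knockouts (KO) for Il33, the gene of the cytokine interleukin-33, or WT littermates. The groups were 3 WT and 3 KO microglia libraries, all from postnatal day 12, and 3 WT and 4 KO astrocyte libraries, of which WT astrocytes 3 and KO astrocytes 2 came from day 9 and the other 5 from day 12. The series' design text calls the libraries biological replicates, and no source used here says whether animals were pooled, so p-values measure the spread between these libraries. Values are FPKM, fragments scaled to transcript length and library depth, which allows levels of different genes to be set side by side.

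Il33 itself stood at 96.3, 113 and 108 FPKM in the 3 WT astrocyte libraries and between 0.424 and 2.28 in the KO astrocytes. Microglia held 0 to 1.26 FPKM in both genotypes, so the microglia labels could not be checked this way. The 10 astrocyte markers summed to 6446 to 11203 FPKM in astrocytes and 70.4 to 109 in microglia, and the 10 microglia markers to 7829 to 8462 in microglia and 36.2 to 78.2 in astrocytes. Of the astrocyte markers, Slc1a2 was listed at 0 in WT astrocytes 1 and KO astrocytes 3. The number of reads per library is unknown. Microglia libraries had 22002 to 24035 genes above 0 and astrocyte libraries 16633 to 18834. WT microglia libraries were less alike than those of the other groups, with correlations of 0.731 to 0.784 against 0.815 to 0.874 elsewhere on the log2(FPKM + 1) scale. Xist, which is transcribed from the inactive X of females, stood at 268 and 283 FPKM in WT microglia 1 and 2 and below 1 in the other 4 microglia libraries. Among astrocytes it stood at 32.9 in WT astrocytes 2, 32.4 in KO astrocytes 4, 10.1 in KO astrocytes 3 and 4.10 in WT astrocytes 3. The remaining astrocyte libraries held 0.133 to 0.370. The part of sex in the genotype, age and cell type comparisons was not tested.

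The promoters of these genes carry the elements through which the 2 waves of transcription are known to be timed, and stretches of them are shown because the elements are shared unequally between the role groups. RefSeq windows on GRCm38.p6, from 250 bases before to 50 after the start, were found for 35 of the 44 members (Ccnd1, Ccnd2, Ccne2, Mcm4, Ccna2, Foxm1, Aurkb, Kif20a and Tpx2 had no entry). The cell cycle homology region (CHR, searched as TTTGAA or TTCGAA on both strands, so that the reverse complement TTCAAA also counts) was found in 15 of 18 members of the mitotic groups (83.33%), in 3 of 17 members of the G1, replication and nucleotide groups (17.65%) and in 21.66% of all 27025 genes with a window. Those 3 were all among the 9 origin and fork members (33.33%). The E2F element was searched on both strands as TTT, then 2 letters each C or G, then CGC. It was found in 7 of the same 17 members (41.18%), in 1 of 18 mitotic members (5.56%) and in 2.6% of all genes. Of those 7, 6 were among the 9 origin and fork members (66.67%), 1 among the 5 G1 members and 0 among the 3 nucleotide members. The CCAAT box, bound by NF-Y, was found in 27 of 35 members (77.14%) and in 41.06% of all genes. A match of letters is a description and not a bound site. Some windows are set far from the GENCODE gene start, and the counts hold only for the windows used. The distance was 466 bases for E2f1, 350 for Cdc6, 539 and 1156 for Mcm7, 629 for Cdca3, 2394 for Cdca8 and 88416 for 1 Ccnd3 window. In the stretches of 150 bases below, written 5′ to 3′ on the strand of the gene, capitals mark CHR, E2F and CCAAT matches on either strand. Genomic positions are given as chromosome, start and end. The first 5 are mitotic genes and the last 2 are helicase subunits.
Cdk1, chr10:69352913-69353062, minus strand: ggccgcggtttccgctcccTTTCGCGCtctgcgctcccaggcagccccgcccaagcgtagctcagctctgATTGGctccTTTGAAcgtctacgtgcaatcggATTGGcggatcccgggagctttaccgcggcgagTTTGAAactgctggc
Top2a, chr11:99024190-99024339, minus strand: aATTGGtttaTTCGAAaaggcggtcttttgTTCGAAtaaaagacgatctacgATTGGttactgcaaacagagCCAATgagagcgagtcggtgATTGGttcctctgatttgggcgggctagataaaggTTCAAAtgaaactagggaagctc
Mki67, chr7:135716380-135716529, minus strand: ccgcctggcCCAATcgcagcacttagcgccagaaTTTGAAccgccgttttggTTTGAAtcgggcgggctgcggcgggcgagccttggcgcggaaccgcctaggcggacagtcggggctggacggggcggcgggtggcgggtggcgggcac
Cdc20, chr4:118437344-118437493, minus strand: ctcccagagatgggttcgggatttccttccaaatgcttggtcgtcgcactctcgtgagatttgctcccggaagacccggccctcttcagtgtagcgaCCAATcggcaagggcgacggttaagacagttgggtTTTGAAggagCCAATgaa
Kif11, chr19:37376232-37376381, plus strand: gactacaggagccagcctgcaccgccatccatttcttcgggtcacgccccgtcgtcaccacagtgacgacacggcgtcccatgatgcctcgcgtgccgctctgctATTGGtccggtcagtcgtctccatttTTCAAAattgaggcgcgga
Mcm6, chr1:128359706-128359855, minus strand: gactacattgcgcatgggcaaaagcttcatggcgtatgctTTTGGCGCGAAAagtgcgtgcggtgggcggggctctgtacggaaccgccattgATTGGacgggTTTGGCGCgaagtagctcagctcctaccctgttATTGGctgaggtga
Mcm5, chr8:75109359-75109508, plus strand: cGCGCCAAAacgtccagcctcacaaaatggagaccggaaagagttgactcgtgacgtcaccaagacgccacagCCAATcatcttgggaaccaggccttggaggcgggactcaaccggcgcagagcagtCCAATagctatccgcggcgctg
All 5 mitotic stretches hold a CHR beside at least 1 CCAAT box, and that of Cdk1 also holds an E2F element. The 2 helicase stretches hold at least 1 E2F element and CCAAT boxes but no CHR. The stretches shown do not stand for their groups. Bub1, Cdca8, Cenpa, Cenpf, Aurka, Plk1 and Cdca3 had a CHR only after the start, and Ccnb1, Birc5 and Nusap1 had none. Bub1b and Ccnb2 had theirs outside the 150 bases. Mcm2 had a CHR and no E2F element, Mcm3 had E2F elements only after the start, and 1 Mcm7 window held both.

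The first comparison asked how the 2 glial types differ in the cell cycle programme. Most of the members were higher in microglia than in astrocytes, in both genotypes. In the WT libraries 34 of the 42 members that passed the filter (a mean of at least 1 FPKM over the 13 libraries) rose in microglia, where 29.1% of all 16258 genes tested did, and 1 fell, where 24.5% of all genes did (limma, Benjamini-Hochberg adjusted p under 0.05). Their median log2 difference was 2.24, against 0.21 over all genes tested. In the KO libraries 36 rose, against 31.9% of all genes, and 1 fell, against 25.1%, with a median of 2.31 against 0.24. Cdc6 and Kif20a were below the filter. The filter took the mean over both cell types, so members low in 1 of them could pass through the other alone. Cdt1, Mcm5, Bub1 and Bub1b passed here but not over the astrocytes alone, and Ccnd2 not over the microglia alone. With no filter, 35 of the 44 members rose and 1 fell in WT, where 5879 of 30273 genes rose and 3972 fell. In KO 37 rose and 1 fell, where 6242 genes rose and 4107 fell. Without WT microglia 3, 32 members rose in WT and 35 in KO. In FPKM, every microglia library lay above every astrocyte library for 26 of the 44 members, and below every one for Ccnd2 alone, against 17.6% and 11.5% of the 30273 genes above 0 in any library (23.4% and 20.1% of the genes tested). Within WT the groups did not overlap for 31 members higher and 1 lower in microglia, against 30.1% and 25.7% of the genes tested, and within KO for 31 higher and 2 lower, against 34.2% and 28.1%. A lower level in a sorted population can come from fewer dividing cells or from less RNA per cell, and the 2 cannot be told apart in bulk libraries. The fit sets both cell types at the same age, with the age term drawn from the astrocytes, which lowers the astrocyte side of genes that are high at day 9.

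**Figure D1:**
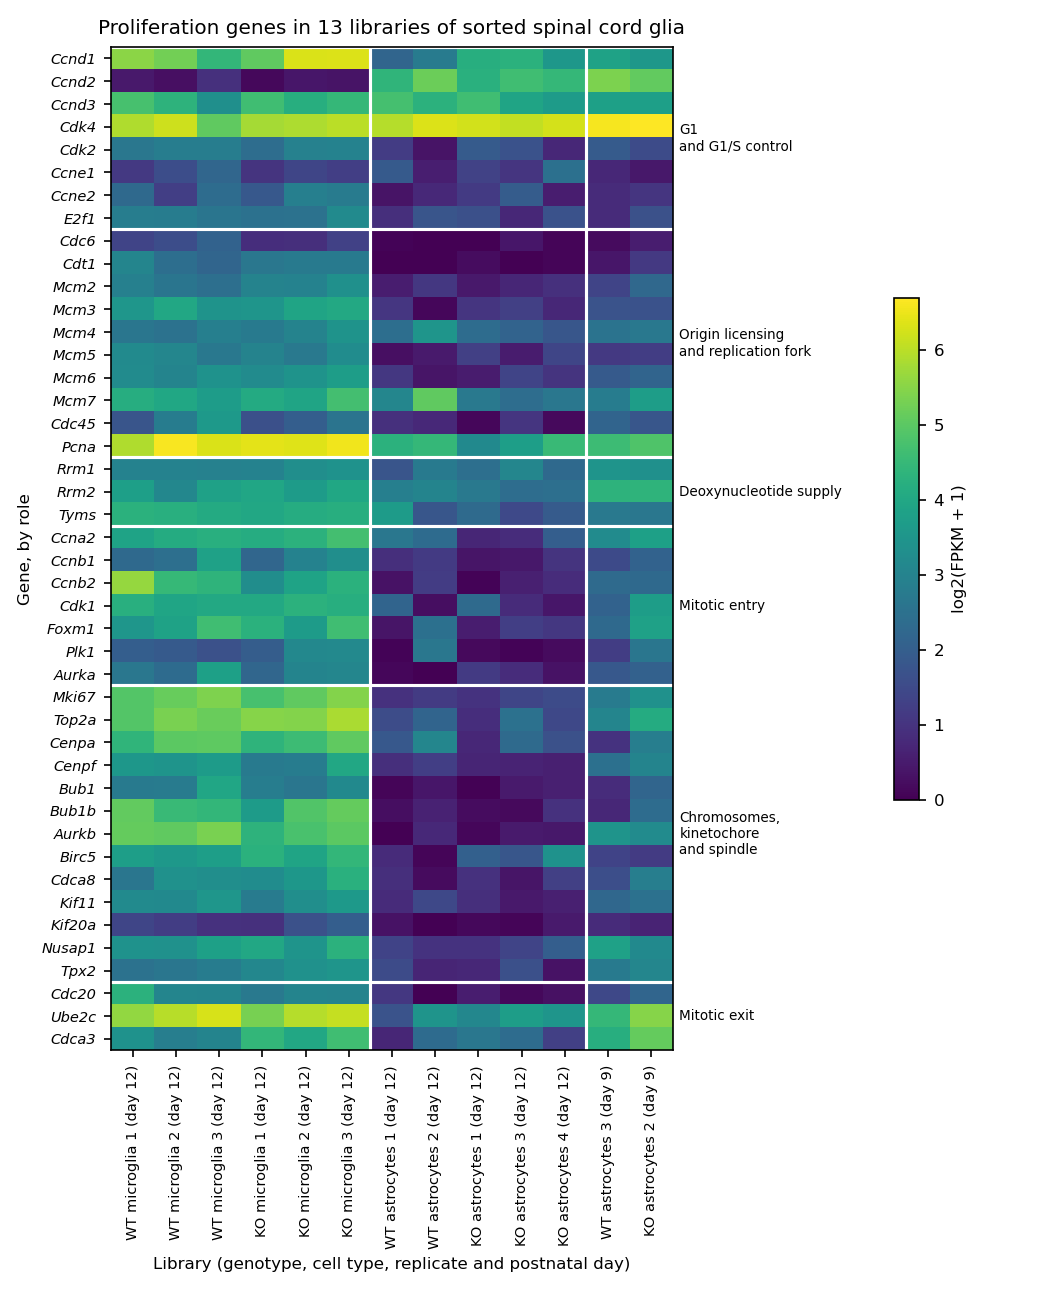
Level of each of the 44 genes (vertical axis, grouped by role) in each of the 13 libraries (horizontal axis) as log2(FPKM + 1), shown by colour. The 6 microglia libraries on the left are brighter than the 5 day 12 astrocyte libraries for most genes below the G1 group, Ccnd2 has the reverse pattern, and the 2 day 9 astrocyte libraries on the right lie between for many mitotic genes.

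The G1 genes were the most mixed group, with 4 of 8 higher in microglia, 1 lower and 3 not called in each genotype. Ccnd1, the D cyclin most often induced by growth factors, stood at 45.4, 37.7 and 20.7 FPKM in WT microglia and at 3.54, 5.87 and 13.4 in WT astrocytes. In KO it stood at 32.3, 78.1 and 79.3 FPKM in microglia and at 17.4, 10.6, 18.4 and 10.6 in astrocytes. No astrocyte library reached the lowest microglia library, and the log2 difference was 2.28 in WT (SE 0.51, limma adjusted p = 0.00331) and 2.11 in KO (SE 0.47, limma adjusted p = 0.00302). Ccnd2 (chr6:127125162-127152193, minus strand), the D cyclin known from neural progenitors and glia, had the opposite distribution. It stood at 19.9, 35.3 and 40.5 FPKM in WT astrocytes and 17.9, 32.8, 23.9 and 21.1 in KO astrocytes, while the 6 microglia libraries held 0.105 to 0.899. Ccnd2 was thus 64.8 times lower in WT microglia by the group means (log2 difference -4.23, SE 0.27, limma adjusted p = 4.09e-07) and 102.5 times lower in KO microglia (-4.15, SE 0.25, limma adjusted p = 2.07e-07).

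Ccnd3, the D cyclin prominent in blood cells, overlapped between the cell types, with 25.6, 18.9 and 9.10 FPKM in WT microglia and 25.3, 18.8 and 12.9 in WT astrocytes. Its log2 difference was -0.31 in WT (SE 0.38, limma adjusted p = 0.516) and 0.30 in KO (SE 0.35, limma adjusted p = 0.492). As shares of the summed FPKM of the 3 D cyclins, Ccnd1 made up 57.5% to 81.6% in the 6 microglia libraries and 7.27% to 32.6% in the 7 astrocyte libraries. The Ccnd2 share was 0.187% to 2.93% in microglia and 30.4% to 60.6% in astrocytes, and the Ccnd3 shares overlapped, at 18.1% to 42.4% and 19.3% to 51.9%. The summed level itself overlapped too, at 30.7 to 100.3 FPKM in microglia and 43.5 to 66.8 in astrocytes. Each D cyclin gene overlaps another gene on the opposite strand (Ccnd1 with LTO1, Ccnd2 with 9330179D12Rik and Gm43126, Ccnd3 with Bysl), and whether the counting used strand is not given in the sources used here, so these values are uncertain to that extent.

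**Figure D2:**
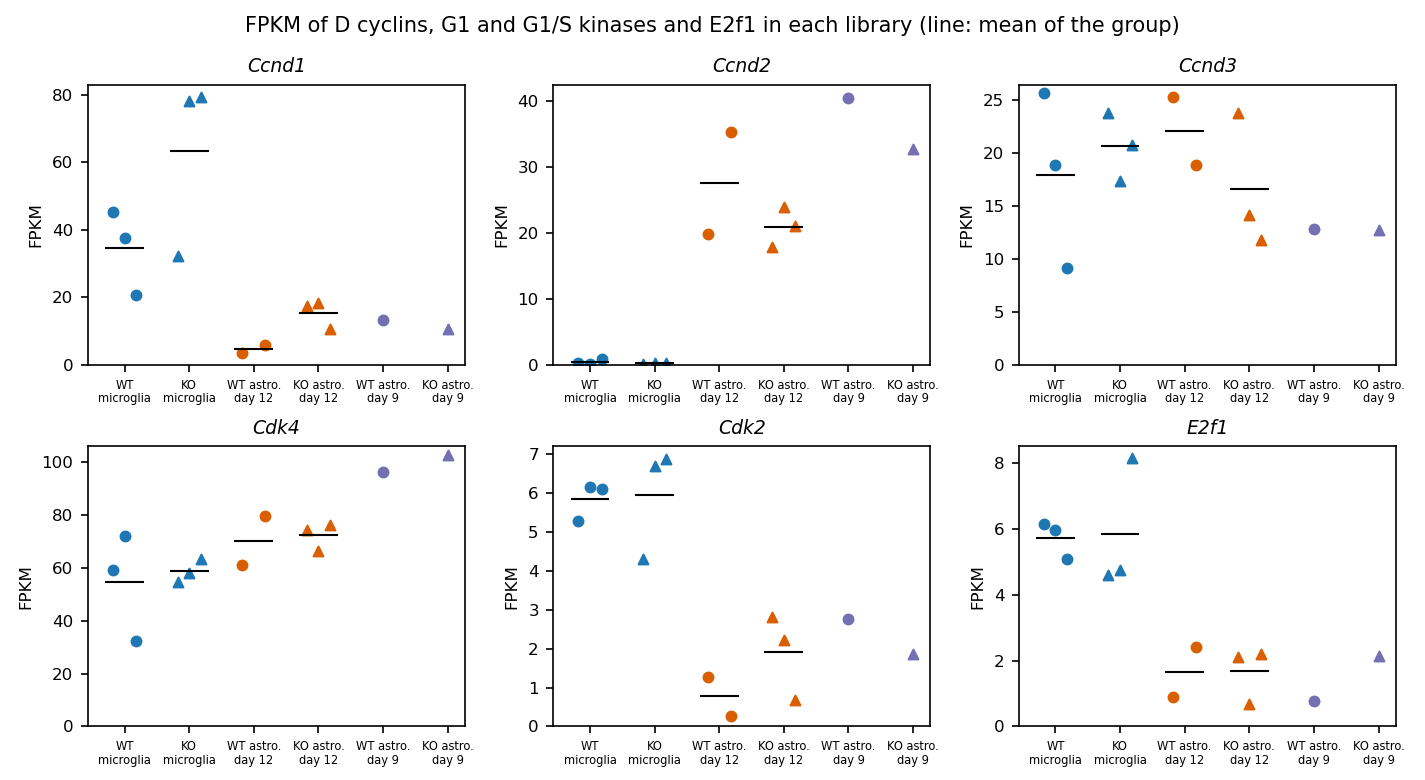
FPKM (vertical axis, from 0) of Ccnd1, Ccnd2, Ccnd3, Cdk4, Cdk2 and E2f1 in each library, by group on the horizontal axis. Circles are WT and triangles KO, blue is microglia, orange day 12 astrocytes and purple day 9 astrocytes, and lines are group means; Ccnd2 is under 1 FPKM in every microglia library, and Cdk4 is highest in the 2 day 9 astrocyte libraries.

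Cdk4, the kinase partner of the D cyclins, did not follow the mitotic genes. It stood at 59.0, 72.1 and 32.4 FPKM in the WT microglia libraries, 54.7, 57.9 and 63.3 in KO microglia, 61.0, 79.5 and 96.2 in WT astrocytes and 74.3, 102.4, 66.1 and 76.0 in KO astrocytes. The KO groups did not overlap, with microglia lower, but neither contrast was called (log2 difference -0.41 in WT, SE 0.27, limma adjusted p = 0.227; -0.30 in KO, SE 0.25, limma adjusted p = 0.329). The S phase kinase gene Cdk2 was higher in microglia, at 5.27, 6.15 and 6.10 FPKM in WT microglia against 1.28, 0.280 and 2.75 in WT astrocytes (log2 difference 1.81, SE 0.40, limma adjusted p = 0.00295) and with a log2 difference of 1.44 in KO (SE 0.37, limma adjusted p = 0.00649). E2f1, an activator of S phase genes, stood at 6.15, 5.96 and 5.10 FPKM in WT microglia and at 0.884, 2.41 and 0.777 in WT astrocytes, and rose by 1.55 in WT (SE 0.38, limma adjusted p = 0.0052) and by 1.28 in KO (SE 0.35, limma adjusted p = 0.00891). Of the E-type cyclins, which work with Cdk2, Ccne2 was called in both genotypes (log2 difference 1.33 and 1.35) and Ccne1 in neither (0.28 and -0.31). The WT call of Ccne2 was lost with no filter, with quantile normalisation, at day 12 only and in the WT libraries alone. It was also lost without any single WT astrocyte library, WT microglia 1 or 3, KO microglia 3 or KO astrocytes 1 or 2. The KO call was lost with quantile normalisation or a replicate block, in the KO libraries alone, or without KO microglia 2 or 3 or KO astrocytes 4.

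Genes of replication were higher in microglia with a few exceptions. In the origin and fork group 7 of 9 tested members rose in WT microglia and 8 of 9 in KO microglia. Pcna, the sliding clamp of the replication fork, was the most abundant of the group, at 58.0, 98.1 and 78.0 FPKM in the WT microglia libraries, 84.3, 81.2 and 92.9 in KO microglia and 8.04 to 27.6 across the 7 astrocyte libraries. Every microglia library exceeded every astrocyte library, with log2 differences of 2.04 in WT (SE 0.35, limma adjusted p = 0.000604) and 2.53 in KO (SE 0.32, limma adjusted p = 6.54e-05). The helicase genes split. Mcm5 stood at 8.15, 7.47 and 5.46 FPKM in WT microglia and 0.217, 0.386 and 1.16 in WT astrocytes (log2 difference 2.51, limma adjusted p = 6.73e-05), and Mcm2 at 6.52, 5.07 and 4.48 against 0.454, 1.13 and 1.57 (2.02, limma adjusted p = 0.000269). Mcm3 was 10.2 times higher in WT microglia and 9.86 times in KO microglia by the group means, and 19.9 and 12.7 times against day 12 astrocytes alone.

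Mcm4 and Mcm7, subunits of the same helicase ring, were not called in WT. Mcm4 stood at 5.19, 4.78 and 6.37 FPKM in WT microglia against 4.33, 10.2 and 4.87 in WT astrocytes, and Mcm7 at 17.1, 14.9 and 11.9 against 7.47, 32.3 and 6.03, so that WT astrocytes 2 held the highest value of both. In KO, Mcm4 was just called (log2 difference 0.83, limma adjusted p = 0.0495) and Mcm7 just missed (1.36, limma adjusted p = 0.0501). Cdt1, the loading factor that licenses origins, was listed at 0, 0 and 0.314 FPKM in WT astrocytes and stood at 7.21, 4.37 and 3.55 in WT microglia (log2 difference 2.66, SE 0.30, limma adjusted p = 2.89e-05). In the KO astrocytes Cdt1 stood at 0.164, 1.17, 0 and 0.0676 FPKM. Cdc6, its partner in licensing, was too low for the filter, at 0.831 to 3.28 FPKM in the microglia libraries and 0 to 0.447 in the astrocytes, without overlap.

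Of the 3 nucleotide genes 2 rose in each genotype. Rrm2, the S phase subunit of ribonucleotide reductase, stood at 12.6, 7.61 and 13.2 FPKM in WT microglia and at 6.38, 7.17 and 19.2 in WT astrocytes, the last from day 9. The group means were 11.2 and 10.9 FPKM, and the call in WT (log2 difference 0.69, SE 0.24, limma adjusted p = 0.0340) rests on the age term. That call was lost without either day 9 library (log2 difference 0.61), and also without WT microglia 1 (0.59), WT microglia 3 (0.56) or WT astrocytes 1 (0.70). In KO the log2 difference of Rrm2 was 1.30 (SE 0.22, limma adjusted p = 0.000577). The WT call of Rrm2 was also lost with quantile normalisation, with a replicate block and in the WT libraries alone. Tyms, the thymidylate synthase gene, rose in both genotypes (1.60 and 2.12), and Rrm1, the large subunit of the reductase, was called in neither (0.61 and 0.68). The WT call of Tyms was lost without WT astrocytes 2 and in the WT libraries alone.

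The mitotic groups had the largest median log2 differences, at 2.79 for entry, 2.84 for chromosomes, kinetochore and spindle and 3.08 for exit in WT, and 2.80, 2.65 and 2.33 in KO. Those of G1, origin and fork, and nucleotide genes were 0.80, 2.04 and 0.69 in WT and 0.79, 2.27 and 1.30 in KO, and whether the groups differ was not tested. All 12 tested members of the chromosome, kinetochore and spindle group and all 3 of mitotic exit rose in microglia in both genotypes, as did 6 of 7 mitotic entry genes in WT and 7 of 7 in KO. Mki67 (chr7:135689784-135716361, minus strand, a protein-coding gene on GRCm38), whose product Ki-67 coats mitotic chromosomes and marks cycling cells, stood at 29.2, 34.4 and 41.3 FPKM in WT microglia, while KO microglia held 25.9, 32.5 and 43.0. WT astrocytes held 0.931, 1.23 and 5.93 FPKM, a mean 12.9 times lower, and KO astrocytes 0.959, 9.43, 1.65 and 1.90, a mean 9.70 times lower. The highest value of each was the day 9 library, and against the day 12 astrocytes alone Mki67 was 32.3 times higher in WT microglia and 22.5 times in KO. The groups did not overlap and the log2 difference of Mki67 was 4.16 in WT (SE 0.26, limma adjusted p = 3.37e-07) and 3.75 in KO (SE 0.24, limma adjusted p = 3.16e-07). Top2a, the topoisomerase that untangles sister chromosomes, stood at 28.8, 39.5 and 34.8 FPKM in WT microglia against 1.92, 3.43 and 7.31 in WT astrocytes, and at 43.7, 42.9 and 56.8 in KO microglia against 0.824, 16.2, 4.62 and 1.72 in KO astrocytes. Its log2 difference was 3.84 in KO (SE 0.40, limma adjusted p = 1.37e-05).

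The spindle checkpoint and chromosomal passenger genes were uneven in the day 12 astrocytes. Aurkb ranged there from 0 to 0.721 FPKM, Bub1 from 0.0307 to 0.491 and Bub1b from 0.134 to 0.920, while Cdca8, the gene of borealin, reached 1.40 and Birc5, the gene of survivin, 9.66. Aurkb, the passenger kinase, stood at 33.3, 32.3 and 39.6 FPKM in WT microglia and at 0, 0.721 and 10.1 in WT astrocytes (log2 difference 4.74, SE 0.27, limma adjusted p = 1.96e-07). Bub1b, the checkpoint gene of BubR1, stood at 32.7, 22.2 and 20.5 against 0.189, 0.565 and 0.680 FPKM, 52.6 times higher by the means (log2 difference 4.52, SE 0.48, limma adjusted p = 1.79e-05). The smallest WT difference of the group was that of the spindle assembly factor Tpx2, at 1.65 (limma adjusted p = 0.00315). Among the mitotic exit genes, Ube2c, the ubiquitin-conjugating enzyme of the anaphase-promoting complex, was the most abundant at 48.2, 62.3 and 77.7 FPKM in WT microglia against 2.25, 10.1 and 20.9 in WT astrocytes (log2 difference 3.41, SE 0.43, limma adjusted p = 6.95e-05). Cdc20, the activator of that complex, differed by 3.08 (SE 0.43, limma adjusted p = 0.00015). Cdca3, a mitotic entry factor that the same complex destroys at exit, overlapped in FPKM in WT (9.63, 6.33 and 7.17 against 0.648, 4.09 and 17.2), and its WT call (1.64, SE 0.47, limma adjusted p = 0.0135) was lost without WT astrocytes 1. That call was also lost in the WT libraries alone.

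The genes that drive entry into mitosis were present together. Cdk1, the mitotic kinase, stood at 17.8, 14.3 and 15.3 FPKM in WT microglia, while KO microglia held 15.4, 18.7 and 17.2. These 6 values lie close together, and no astrocyte library reached them. WT astrocytes held 3.43, 0.190 and 3.30 FPKM (log2 difference 3.15, SE 0.61, limma adjusted p = 0.00125) and KO astrocytes 3.93, 12.1, 0.786 and 0.320 (2.80, SE 0.56, limma adjusted p = 0.00146). Its cyclins Ccnb1 and Ccnb2 rose by 2.02 (limma adjusted p = 0.00453) and 4.10 (limma adjusted p = 1.73e-05) in WT microglia and by 2.11 (limma adjusted p = 0.002) and 3.29 (limma adjusted p = 4.2e-05) in KO microglia. The WT call of Ccnb1 was lost in a fit of the WT libraries alone. Ccna2, the cyclin that spans S phase and G2, rose by 1.90 (limma adjusted p = 0.00466) and 2.96 (limma adjusted p = 0.000134). Foxm1, the transcription factor of the G2 and mitotic wave, stood at 10.5, 13.6 and 24.0 FPKM in WT microglia against 0.294, 4.57 and 3.84 in WT astrocytes (log2 difference 2.94, limma adjusted p = 0.00234). Plk1, the polo-like kinase, was not called in WT, where WT astrocytes 2 held 5.32 FPKM and the WT microglia 3.03, 2.69 and 2.16.

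**Figure D3:**
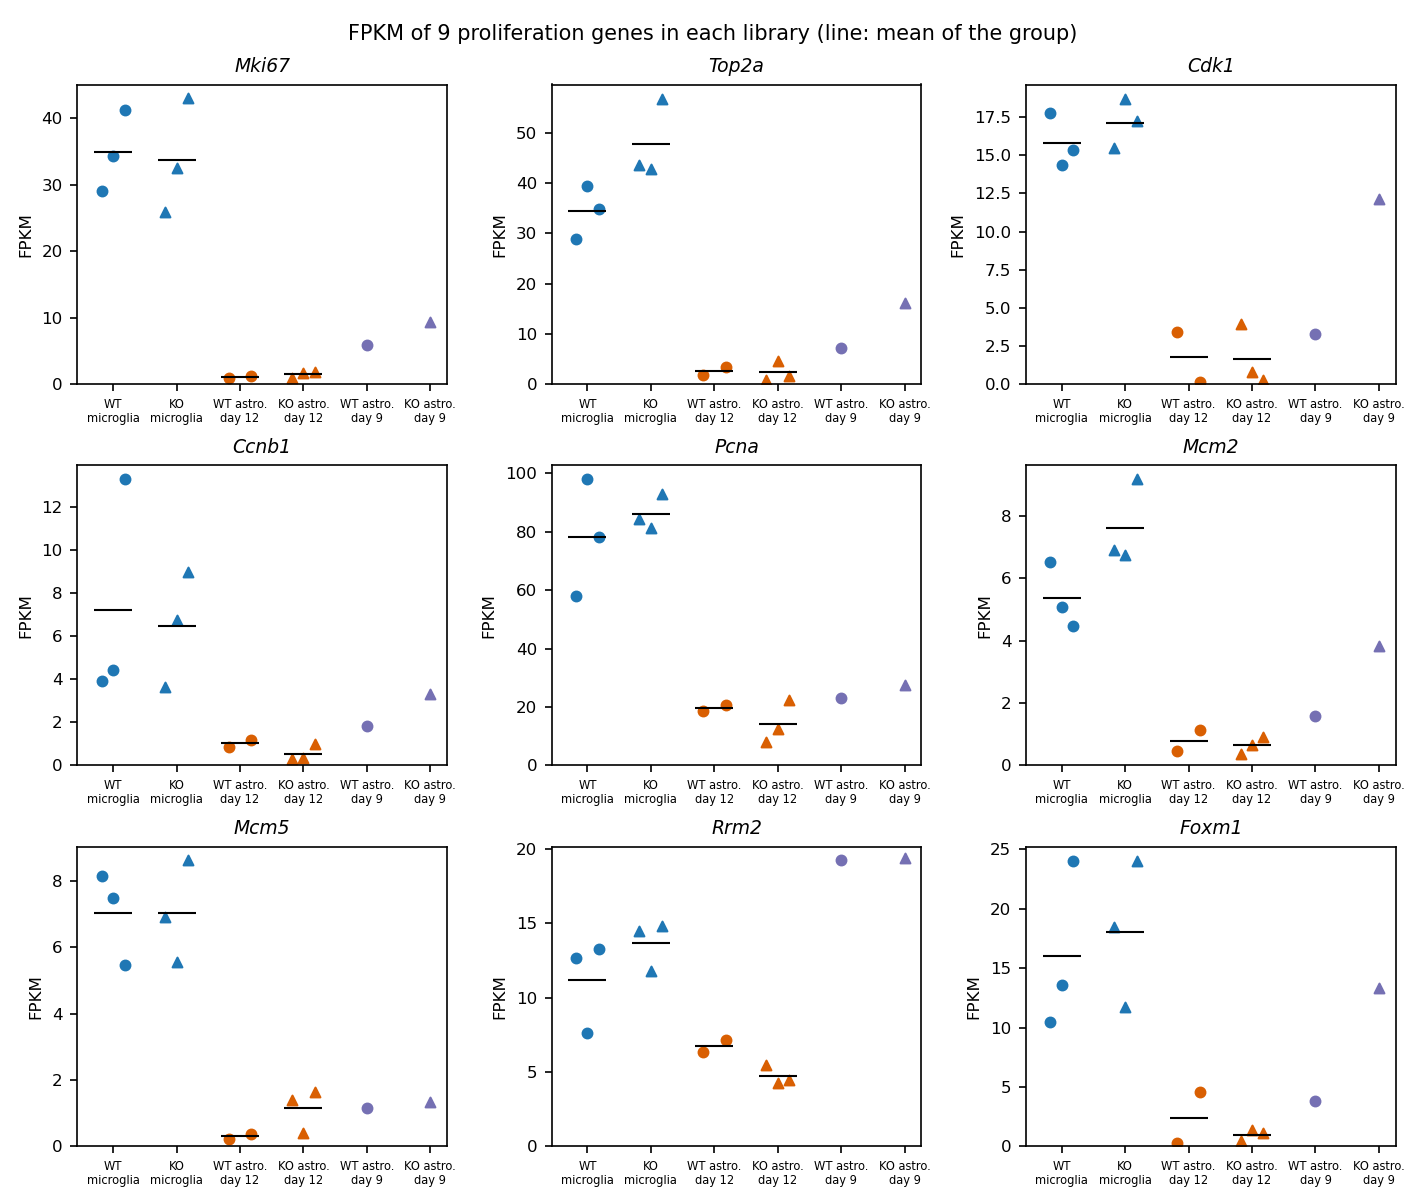
FPKM (vertical axis, from 0) of 9 proliferation genes in each library, by group on the horizontal axis, with circles for WT, triangles for KO, blue for microglia, orange for day 12 astrocytes, purple for day 9 astrocytes and lines for group means. Mki67, Top2a, Pcna and Mcm2 lie higher in all 6 microglia libraries than in any astrocyte library, while Rrm2 is highest in the 2 day 9 astrocyte libraries, at 19.2 and 19.4 FPKM.

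Most cell cycle genes outside the 44 that act in replication or mitosis were also higher in microglia. Over all genes tested, 29.1% rose and 24.5% fell in WT microglia, and 31.9% rose and 25.1% fell in KO microglia. Of 50 other mitotic genes tested, 38 rose and 1 fell in WT microglia, and 43 rose and 1 fell in KO microglia; the kinetochore motor gene Cenpe differed by 2.46 and 2.39 and the spindle gene Hmmr by 3.17 and 2.93. Of 24 other replication genes, 14 rose in WT microglia, and 16 rose and 1 fell in KO, among them the primase gene Prim1 (2.34 and 1.95) and the polymerase gene Pold1 (3.27 and 3.20). Of 5 tested inhibitors of cyclin-dependent kinases, Cdkn2c rose in both genotypes (2.98 and 2.95) and Cdkn1b in WT (0.82, limma adjusted p = 0.0455). The 18 pocket protein, E2F partner and DREAM genes went both ways. With 4 up and 5 down in WT and 6 up and 5 down in KO, they lay near the shares of all genes. The repressor E2f6 fell by 2.05 and 2.22 and E2f5 by 2.68 and 1.92, while E2f8 rose by 2.87 in WT and the pocket protein gene Rbl1 by 2.49 in KO.

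The scaling between libraries sets how many genes are called each way, so it was varied. Over all genes the main calls were 4737 up and 3980 down in WT and 5181 up and 4073 down in KO. Quantile normalisation gave 3764 up and 4930 down in WT and 4083 up and 5160 down in KO, and scaling to equal sums over protein-coding genes gave 5477 up and 3330 down, and 6125 up and 3288 down. These scalings moved the median of all genes to -0.06 and 0.47 in WT and to -0.08 and 0.54 in KO. The members' median was then 1.79 and 2.49 in WT and 1.84 and 2.57 in KO, with 31 and 35 members up in WT and 32 and 38 in KO. Under quantile normalisation the calls of Ccne2 and Cdc45 were lost in both genotypes, with that of Rrm2 in WT and those of E2f1 and Mcm4 in KO, and Ccne1 was called lower in KO microglia.

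Markers of other cells differed between the sorts as well. The CD11b sort held border macrophage markers (8 of 8 higher in each genotype, 227 to 670 FPKM summed in microglia and 1.04 to 5.99 in astrocytes) and markers of neutrophils and their precursors (5 of 8 tested higher, 57.2 to 271 against 0 to 1.04). Of the 10 genes of that last list, S100a8, S100a9, Retnlg, Ngp, Ltf, Elane and Lcn2 were listed at 0 in every astrocyte library. Monocyte markers summed to 6.31 to 26.4 FPKM in microglia and 0.280 to 10.2 in astrocytes (1 of 2 tested higher in each genotype). The astrocyte sum was nearly all Cd44, at 0.261 to 10.2 FPKM. Of 6 lymphocyte markers, Cd79b alone was present in every microglia library, at 13.1 to 17.9 FPKM against 0 to 0.0476 in astrocytes, and Cd3e, Cd3g, Cd79a, Ms4a1 and Nkg7 were at 0 to 1.24 in microglia. Astrocyte libraries held 4533 to 8164 FPKM of 9 myelinating oligodendrocyte markers and microglia libraries 1069 to 2636, with 8 of 9 lower in microglia. Neuron markers were also lower in microglia for 3 of 7 tested in WT and 6 of 7 in KO, with sums of 4.62 to 48.8 FPKM in microglia and 28.9 to 307 in astrocytes. The part of these cells in the levels of the members was not tested.

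Within the astrocytes, the comparison of day 9 with day 12 asked how the programme differs over 3 days of postnatal life. Levels of most mitotic and many replication genes were several times higher in the 2 day 9 libraries, but no member passed the test across all genes. There was 1 library of each genotype at day 9, so age and what else sets those 2 libraries apart cannot be told apart. Of the 38 members that passed the filter in the astrocyte fit, 0 were called, where 0.0448% of 13397 genes tested were called higher and 0.0523% lower. At an unadjusted p under 0.05, 19 were higher and 0 lower (limma unadjusted p), against 3.72% higher and 4.9% lower of all genes. Of the 38 differences, 33 were positive, with a median log2 difference of 1.21 against -0.02 over all genes tested. The filter took the mean over both ages, so members low at day 12, such as Aurkb, could pass through their day 9 values alone. That selection tilts these counts and the median toward day 9. With no filter, 39 of the 44 differences were positive and 5 negative, with a median of 1.12 against -0.01 over all 23110 genes above 0. Leaving out either day 9 library left a single one. The median log2 difference was then 1.09 without KO astrocytes 2 (25 positive, 8 negative) and 1.54 without WT astrocytes 3 (31 positive, 5 negative). In FPKM, both day 9 libraries exceeded all 5 day 12 libraries for 26 of the 44 members and lay below them for 0, against 5.82% and 5.68% of 23110 genes above 0 (6.44% and 8.27% of the genes tested). Leaving out any 1 of the 5 day 12 libraries, the count was 26 to 30, and the share of all genes was not computed for those sets. Cdc6, Cdt1, Mcm5, Bub1, Bub1b and Kif20a were below the filter.

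The size of the difference varied between role groups. The median log2 difference was 0.22 for G1 genes, 0.89 for origin and fork genes, 0.96 for nucleotide genes, 1.68 for mitotic entry, 1.90 for chromosomes, kinetochore and spindle and 1.95 for mitotic exit, over the tested members of each group. Both day 9 libraries exceeded all day 12 libraries for 1 of 8 G1 genes, 6 of 10 origin and fork genes, 2 of 3 nucleotide genes, 4 of 7 mitotic entry genes, 10 of 13 chromosome genes and 3 of 3 mitotic exit genes. The limit of the filter holds for these medians too, and whether the groups differ from each other was not tested.

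Aurkb (chr11:69045647-69051664, plus strand) had the largest difference of the tested members. It stood at 10.1 and 8.44 FPKM at day 9 and at 0, 0.721, 0.0831, 0.409 and 0.337 at day 12, which did not overlap, with a mean 29.9 times higher at day 9 (log2 difference 2.98, SE 0.44, limma adjusted p = 0.108; exact permutation p = 0.0476, the smallest that 2 against 5 libraries allow). Aurkb was called under 3 alternatives (all 13 libraries fitted together, no genotype term, or no variance trend), with limma adjusted p from 0.00124 to 0.647 over all alternatives run. Mki67 stood at 5.93 and 9.43 FPKM at day 9 and at 0.931 to 1.90 at day 12 (log2 difference 1.92, SE 0.38, limma adjusted p = 0.208). Cdca3 stood at 17.2 and 33.6 FPKM at day 9 against 0.648 to 5.30 at day 12 (2.84, SE 0.57, limma adjusted p = 0.215), which placed KO astrocytes 2 above every microglia library. Rrm2 stood at 19.2 and 19.4 FPKM against 4.29 to 7.17 (1.62, SE 0.27, limma adjusted p = 0.149), and both day 9 values exceeded all 6 microglia libraries.

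Of the other members described here, Top2a, Ccnb2, Cdc45, Mcm2 and Pcna did not overlap between the ages and Cdk1 and Foxm1 did. Top2a stood at 7.31 and 16.2 FPKM at day 9 and 0.824 to 4.62 at day 12 (log2 difference 1.89, SE 0.56, limma adjusted p = 0.389), and the B cyclin gene Ccnb2 at 3.99 and 3.87 against 0.0530 to 1.29 (1.68, limma adjusted p = 0.384). Cdc45, which joins the helicase when a fork fires, stood at 3.46 and 2.45 FPKM against 0.0889 to 1.04 (1.33, limma adjusted p = 0.505). Mcm2 (1.57 and 3.82 against 0.377 to 1.13) and Pcna (23.2 and 27.6 against 8.04 to 22.3) were separated by small margins. Cdk1 stood at 3.30 and 12.1 FPKM at day 9 and Foxm1 at 3.84 and 13.3, while Cdk1 reached 3.93 and Foxm1 4.57 at day 12.

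None of the 8 G1 genes was called by age, and their log2 differences lay between -0.85 for Ccne1 and 0.61 for Ccnd2. Cdk4 alone of them was higher in both day 9 libraries, at 96.2 and 102.4 FPKM against 61.0 to 79.5 (log2 difference 0.48, SE 0.18, limma adjusted p = 0.517). Ccnd1 stood at 13.4 and 10.6 FPKM at day 9 within the day 12 range of 3.54 to 18.4, and Ccnd2 at 40.5 and 32.8 against 17.9 to 35.3 (log2 differences 0.40 and 0.61). Ccnd3 (12.9 and 12.7 FPKM, within 11.8 to 25.3) and E2f1 (0.777 and 2.15, within 0.685 to 2.41) had log2 differences of -0.50 and -0.08. Ccne1 stood at 0.682 and 0.347 FPKM at day 9 and 0.482 to 4.51 at day 12, a mean 3.99 times lower at day 9 with overlap (SE of the log2 difference 0.61, limma adjusted p = 0.805). Cdk2 differed by 0.57 and Ccne2 by 0.04.

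**Figure D4:**
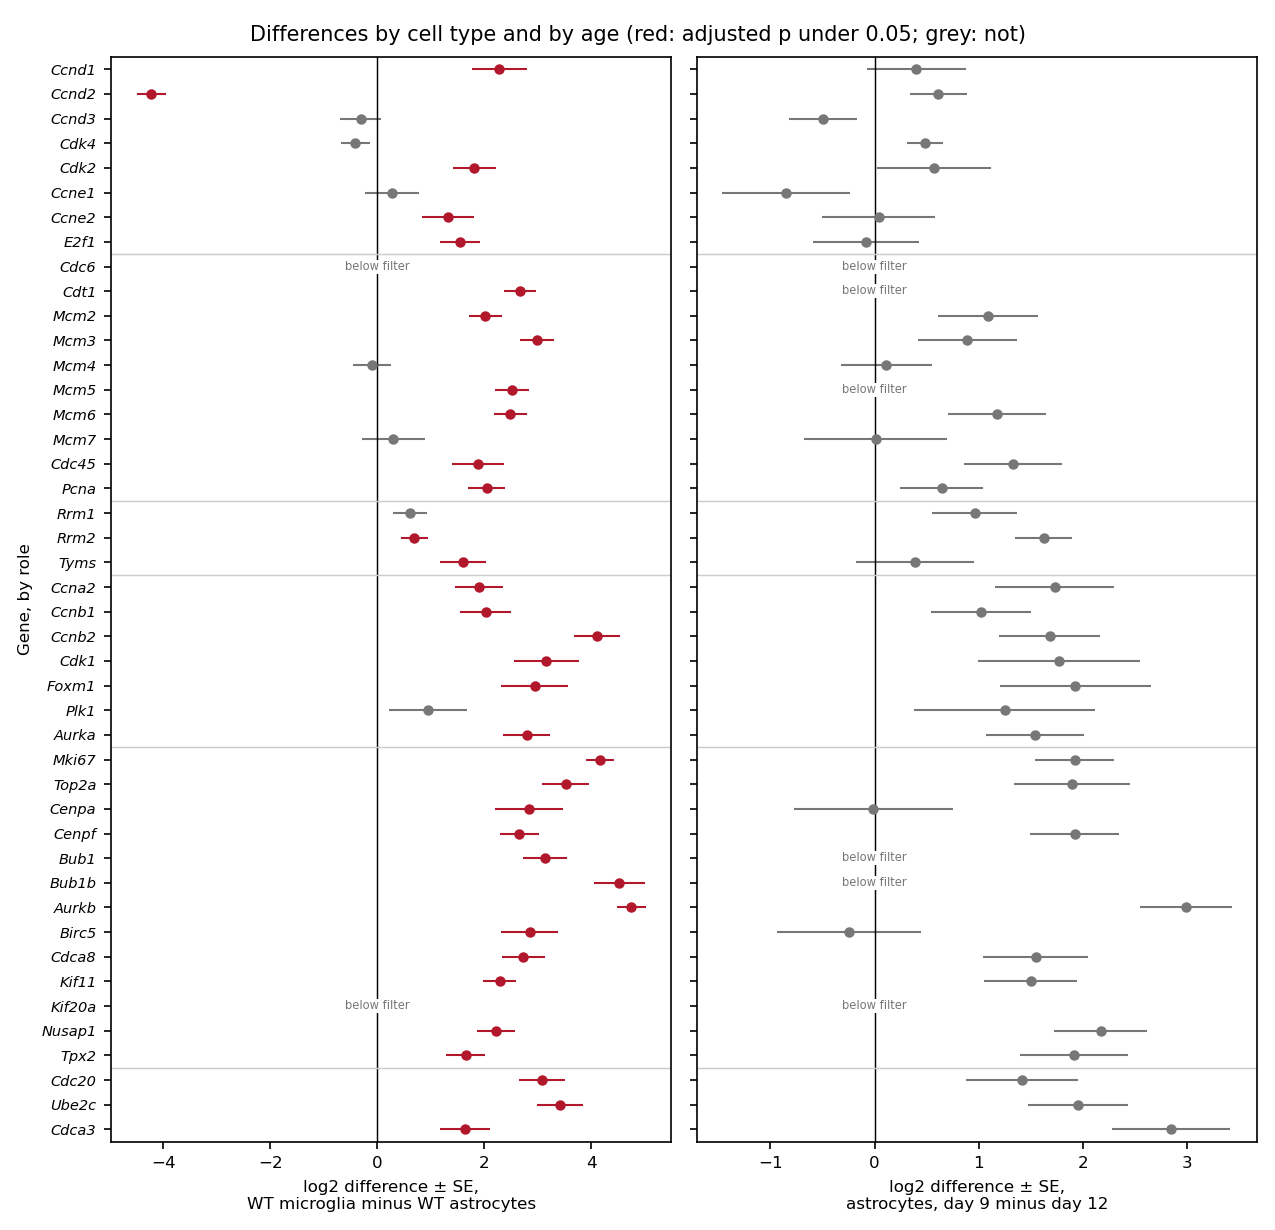
Log2 difference of log2(FPKM + 1) with its SE (horizontal axes) for each of the 44 genes (vertical axis, by role), WT microglia minus WT astrocytes on the left and day 9 minus day 12 astrocytes on the right, with red for an adjusted p under 0.05 and grey for the rest. On the left 34 genes are red to the right of 0 and Ccnd2 to the left; on the right none is red, and most points from mitotic entry downward lie between 1 and 3.

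The 2 day 9 libraries differed from each other and still lay below microglia. KO astrocytes 2 was higher than WT astrocytes 3 in 30 of the 44 members. The members summed to 476 FPKM in KO astrocytes 2, 371 in WT astrocytes 3, 197 to 274 in the day 12 astrocytes and 629 to 922 in the microglia. Per member, the day 9 mean was a median of 39.8% of the microglia mean and the day 12 mean 12.2%. Both day 9 libraries reached the lowest microglia library in 9 of 44 members, and all 5 day 12 libraries did so in 3, which were Ccnd2, Ccnd3 and Cdk4. Within a genotype, the median coefficient of variation over the members was 56.9% in the 3 KO day 12 astrocyte libraries, 24.0% in WT microglia and 24.8% in KO microglia. Over all 5 day 12 libraries, which pool the genotypes, it was 72.9%. These groups sit at unlike levels, with a median of the member means of 1.40 FPKM in the day 12 astrocytes and 9.80 and 11.3 in the WT and KO microglia. Plk1 was the widest over the 5, at 5.32 FPKM in WT astrocytes 2 and 0.0546 to 0.154 in the other 4 day 12 libraries.

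Outside the 44, 0 of the cell cycle genes were called by age. The median log2 difference was 1.04 for 33 other mitotic genes tested (13 with an unadjusted p under 0.05), 0.50 for 19 other replication genes (5), 0.34 for 5 kinase inhibitors (3) and -0.09 for 17 pocket protein, E2F and DREAM genes (0). Markers of other cells also differed in level between the ages. The 10 astrocyte markers summed to 6446 to 6838 FPKM at day 9 and 6566 to 11203 at day 12 (5 of 10 lower at an unadjusted p under 0.05, 0 called). Of these, Slc1a2 was listed at 0 in WT astrocytes 1 and KO astrocytes 3, both from day 12. It stood at 1631 to 3996 FPKM in the other astrocyte libraries, so the ranges of these sums depend on it. The 8 oligodendrocyte precursor markers summed to 120 to 183 FPKM at day 9 and 83.3 to 137 at day 12 (1 of 6 tested higher at an unadjusted p under 0.05, 0 called). The 10 microglia markers summed to 36.2 to 43.0 FPKM at day 9 and 43.0 to 78.2 at day 12 (5 of 10 lower at an unadjusted p under 0.05, 0 called). Myelinating oligodendrocyte markers summed to 4533 to 5722 and 5266 to 8164 FPKM, and erythroid markers to 6.81 to 10.2 and 27.5 to 134 (3 of 4 lower at an unadjusted p under 0.05). Neuron markers summed to 28.9 to 51.1 FPKM at day 9 and 65.7 to 307 at day 12, without overlap (2 of 7 tested lower at an unadjusted p under 0.05, 0 called). Endothelial and mural markers, at 26.9 to 39.2 and 47.0 to 87.1 FPKM, had 1 of 8 called lower at day 9. Ependymal markers summed to 18.1 to 19.4 and 7.53 to 29.9 FPKM, and 1 of 3 tested, Dynlrb2, was higher at an unadjusted p under 0.05 (0 called), at 3.83 and 5.98 FPKM at day 9 and at 0 in all 5 day 12 libraries. The part of these cells in the day 9 levels was not tested.

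The genotype comparison asked whether loss of interleukin-33 alters the programme in either cell type. In microglia no member passed the test. Of 43 members tested (Ccnd2 was below the filter), 0 were called, where 0.0566% of 15889 genes were called higher in KO and 0.0252% lower. The differences were positive for 25 and negative for 18, with a median of 0.16 against 0.02 over all genes. Without KO microglia 3 the median was 0.06, and without KO microglia 1 the differences were positive for 34 and negative for 9. At an unadjusted p under 0.05, 3 members were higher (Cdca3, Tpx2 and Birc5) and 0 lower, against 4.29% and 3.67% of all genes. Groups did not overlap for 5 members higher in KO (Mcm2, Top2a, Birc5, Tpx2 and Cdca3) and 4 lower (Cdc6, Ccnb2, Aurkb and Cdc20), against 6.3% and 6.6% of 29563 genes above 0 (8.41% and 7.48% of the genes tested). Without WT microglia 3, 0 members were called and 3 had an unadjusted p under 0.05, against 1446 of 15606 genes tested. Without KO microglia 1, 15 members were higher and 4 lower without overlap, and without KO microglia 3, 5 were higher and 6 lower. There were 9 and 6 without WT microglia 1, and 8 and 5 without WT microglia 3. Smaller groups separate more easily, and the shares of all genes were not computed for these sets, so nothing is concluded from them.

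Cdca3 (chr6:124829547-124833701, plus strand) was the member with the smallest p. It stood at 9.63, 6.33 and 7.17 FPKM in WT microglia and, in those from KO mice, at 20.6, 15.2 and 23.8, which did not overlap (log2 difference 1.26, SE 0.24, limma adjusted p = 0.386; exact permutation p = 0.1, the smallest that 3 against 3 allow). The authors' deposited table of differential genes in microglia lists Cdca3 as 1 of its 483 genes, ranked 24 by adjusted p, where WT averaged 241 and KO 557 normalised counts, with an adjusted p of 0.000125. In that authors' deposited table the log2 fold change of KO over WT was 1.26 before shrinkage and 1.15 after it. No other member and 0 of the 103 other cell cycle genes stand in the authors' deposited tables for microglia or for astrocytes (10 genes).

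The other members named by rule in microglia spread across 0. Tpx2 stood at 4.77, 5.19 and 6.05 FPKM in WT and 7.50, 9.42 and 10.3 in KO (log2 difference 0.66, SE 0.20, limma adjusted p = 0.553). Plk1 stood at 3.03, 2.69 and 2.16 FPKM in WT and 2.96, 7.67 and 7.95 in KO (0.90, SE 0.37, limma adjusted p = 0.596), with KO microglia 1 inside the WT range, and Ccnd1 shared that pattern (0.81, SE 0.46, limma adjusted p = 0.666). Cdc6 stood at 1.59, 1.99 and 3.28 FPKM in WT and 0.831, 0.854 and 1.47 in KO (-0.66, SE 0.32, limma adjusted p = 0.626), and Ccnb2 at 48.4, 21.3 and 19.3 in WT and 8.68, 13.8 and 18.5 in KO (a mean 0.460 times that of WT, limma adjusted p = 0.596). Mki67 differed by -0.06 (SE 0.24, limma adjusted p = 0.951) and Rrm1 by 0.28 (SE 0.19, limma adjusted p = 0.734). KO microglia 3 was the highest of the 6 microglia libraries for 26 of the 44 members and KO microglia 1 the lowest for 19. Their summed level was 691 to 714 FPKM in WT and 629 to 922 in KO.

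Markers of other cells also differed in level between the genotypes, though none was called. Myelinating oligodendrocyte markers summed to 1069 to 1820 FPKM in WT microglia and 1611 to 2636 in KO, which overlapped, with 6 of 9 higher at an unadjusted p under 0.05. In 3 lists the sums did not overlap and were lower in KO. The neutrophil and precursor list stood at 135 to 271 FPKM in WT microglia and 57.2 to 122 in KO (2 of 8 tested lower at an unadjusted p under 0.05), the monocyte list at 13.0 to 26.4 and 6.31 to 11.8 (2 of 4) and the neuron list at 8.76 to 48.8 and 4.62 to 5.74 (1 of 2). Of the astrocyte and border macrophage lists 1 of 8 each was lower at that p. The part of these cells was not tested.

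In astrocytes KO and WT overlapped for all 44 members, where 2.09% of 23110 genes above 0 were higher without overlap and 1.89% lower (2.32% and 2.36% of the genes tested). Without KO astrocytes 2, 1 member was higher and 5 lower without overlap, and without WT astrocytes 3, 4 were higher and 0 lower. Such smaller sets separate more easily, and the shares of all genes were not computed for them, so nothing is concluded from these counts. Of 38 tested, 0 were called, where 0.00746% of 13397 genes were called higher and 0.0149% lower, and 0 reached an unadjusted p under 0.05, against 2.13% and 2.05% of all genes. Without WT astrocytes 2, WT astrocytes 3 or KO astrocytes 2, 2 members did, of 40, 36 and 33 tested. Over all genes tested, 509 of 13396, 824 of 13335 and 826 of 13318 did in these 3 fits. Differences were positive for 21 and negative for 17, with a median of 0.06, which was -0.08 without WT astrocytes 3, -0.20 without KO astrocytes 2, 0.15 without KO astrocytes 1 and 0.02 without KO astrocytes 3. Ccnd1 stood at 3.54, 5.87 and 13.4 FPKM in WT and 17.4, 10.6, 18.4 and 10.6 in KO (log2 difference 0.99, SE 0.43, limma adjusted p = 0.921; exact permutation p = 0.171, with 0.0286 the lowest this design can give). Birc5 stood at 0.774, 0.0616 and 1.55 FPKM in WT and 3.13, 1.23, 2.46 and 9.66 in KO (1.33, SE 0.63, limma adjusted p = 0.921). Of the other role groups the smallest p belonged to Mcm4 (-0.57), Rrm2 (-0.31), Ccna2 (-0.75) and Ube2c (0.90), with limma adjusted p of 0.921 to 0.925.

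**Figure D5:**
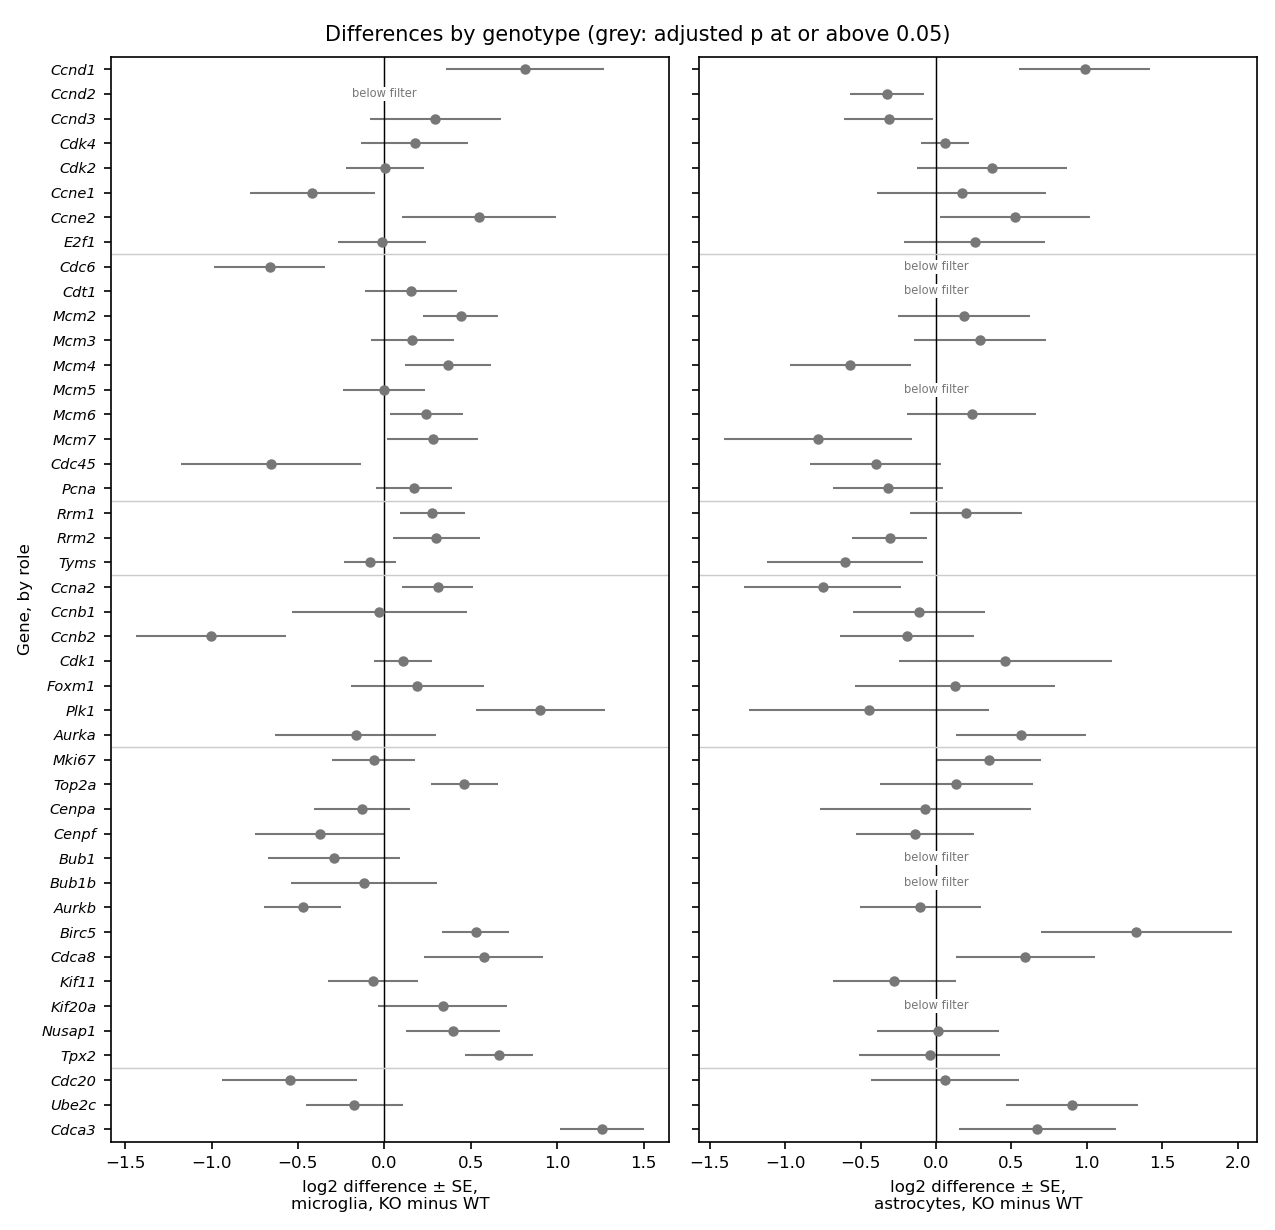
Log2 difference of log2(FPKM + 1), KO minus WT, with its SE (horizontal axes), for each of the 44 genes (vertical axis, by role) in microglia on the left and in astrocytes on the right, with genes under the filter marked. All points are grey, since no gene had an adjusted p under 0.05, and Cdca3 lies farthest from 0 in microglia, at 1.26.

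The difference between these genotype effects was tested directly by an interaction term in the fit of all 13 libraries. Of 42 members tested, 0 were called, where 0.0861% of 16258 genes were called higher and 0.0554% lower, and 0 reached an unadjusted p under 0.05, against 3.92% and 2.69% of all genes. Without WT astrocytes 3 or without KO astrocytes 2, 5 members did, against 1237 of 16308 and 1227 of 16335 genes tested. The smallest p of each role group belonged to Ccnd3 (log2 difference 0.61), Mcm4 (0.94), Rrm2 (0.61), Ccna2 (1.06), Tpx2 (0.71) and Ube2c (-1.07), with limma adjusted p of 0.782 to 0.836. The SEs of these 6 differences were 0.32 to 0.59.

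Some values carry a limit of counting. Exons overlap those of a gene on the opposite strand for Ccna2, Ccne2, Cdk2, Cdk4, Cdc20, Cdc45, Cdca8, Mcm7, Plk1, Kif20a, Nusap1 and Ube2c besides the D cyclins. Named pseudogenes exist for Ccnb1, Ccnb2, Ccnd3, Pcna and Tyms, and how reads that match both were assigned is not given in the sources used here.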

How the data were processed

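RNA from 13 sorted libraries was amplified and made into libraries with NuGEN RNA-Seq V2, per the labels' protocols. The submitters' processing notes name the build GRCm38, the aligners TopHat2 2.0.11 and Bowtie2 2.2.3, Cufflinks with Cuffnorm, HTSeq 0.6.1p1 with DESeq2, and FastQC. For the annotation, the scaling between libraries and the use of strand, nothing is given in the sources used here. Per the file headers, all genes have FPKM values in the deposited table. The authors' deposited tables of differential genes hold mean normalised counts per group (a signal, not raw counts), log2 fold changes of WT over KO, a Wald statistic (a score) and p-values, per the file headers; signs were turned to KO over WT. Gene identifiers were matched to GENCODE mouse release 21 (37605 matched, 96.0%).

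From the FPKM, log2(FPKM + 1) was fitted with limma 3.58.1 in R 4.3.3 (variance trend, two-sided) over genes with a mean of at least 1 FPKM in the libraries fitted, and p-values were adjusted by Benjamini-Hochberg over all genes tested. A gene was called at an adjusted p under 0.05. Microglia genotypes were fitted alone, astrocyte genotype and age together, and cell types and the interaction in all 13 libraries with age. A log2 difference on this scale understates the change of low genes. Single genes were also compared by two-sided exact permutation tests on FPKM. The fit was tested on simulated data. The members, gene lists and tests were chosen with earlier results of these data known. The text names 14 fixed members and, in each comparison, every called member up to 12 (beyond that the 3 largest differences of each role group) and the member of smallest p in a role group with none called; values of other members given in the text were chosen after they were seen. Alternatives were another pseudocount, no filter, no trend, other scalings, other sets of libraries, a replicate block and leaving out each library.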

Additional observations from a re-analysis of the deposited data

Results flagged for a closer look

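In KO astrocytes, the only group of 4 libraries, 51 sets of values (the 44 members, the 6 role sums and the sum of all members) were examined for a library far from the other 3, and 19 had one. Chance gives about 1 such library in 20 groups. The genes and sums share their libraries, so these are not 19 separate events. In 18 of the 19 the library was KO astrocytes 2, the single day 9 library of the group, and it was the highest each time.

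Among replication and nucleotide genes it stood at 1.17 FPKM for Cdt1, 3.82 for Mcm2, 12.2 for Mcm7 and 19.4 for Rrm2. Among mitotic entry genes it stood at 13.3 FPKM for Foxm1 and 5.22 for Plk1. Among chromosome and spindle genes it stood at 9.43 FPKM for Mki67, 7.14 for Cenpf, 3.55 for Bub1, 8.44 for Aurkb and 4.64 for Kif11. The mitotic exit genes stood at 3.57 FPKM for Cdc20, 43.3 for Ube2c and 33.6 for Cdca3. The summed level in that library was 33.9 FPKM for nucleotide genes, against 11.2 to 13.9 in the other 3, 54.1 for mitotic entry, against 4.66 to 6.67, 80.5 for mitotic exit, against 11.9 to 16.6, and 476 for all members, against 206 to 215. The 1 other case was E2f1, at 0.685 FPKM in KO astrocytes 3 against 2.11 to 2.22.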

How the results depend on the processing

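No called result changed sign under the alternatives run; leaving out each library, the members' median lay between 0.06 and 0.19 for genotype in microglia (0.06 without KO microglia 3), between -0.20 and 0.15 for genotype in astrocytes and between -0.16 and 0.14 for the interaction. For KO against WT microglia, 13 genes were called, and 25 with a pseudocount of 0.1, 7 with no filter, 3 with a replicate block, 37 in a fit of all 13 libraries and 18 to 48 leaving out each library. For KO against WT astrocytes, 3 genes were called, and 5 with a pseudocount of 0.1, 0 with no filter, 0 with the block, 7 with all 13 libraries, 0 at day 12 only and 0 to 8 leaving out each library. By age, 13 genes were called, and 7 with a pseudocount of 0.1, 35 with no filter, 0 with the block, 63 with all 13 libraries, 25 with no genotype term and 6 to 82 leaving out each library (82 without WT astrocytes 3, 62 without KO astrocytes 2, 6 without WT astrocytes 2). By age, members called went from 0 to 1 with no trend (Aurkb), 1 with no genotype term (Aurkb) and 5 with all 13 libraries (Aurkb, Cdca3, Mki67, Nusap1 and Rrm2), and their median of 1.21 to 1.85 with a pseudocount of 0.1 and to 1.06 to 1.54 leaving out each library. Medians between cell types became 2.89 in WT and 3.21 in KO with a pseudocount of 0.1. For the interaction, 23 genes were called, and 37 with no filter, 14 with the block and 15 to 75 leaving out each library. Leaving out each library, 32 to 35 members were called between cell types in WT and 35 to 40 in KO, and 0 by genotype, age or interaction. The 19 members at an unadjusted p under 0.05 by age were 9 with the block, against 909 of 13397 genes tested. Correlations of deviations between same-numbered libraries were small (0.0276, 0.0099 and 0.0228 in microglia and 0.0209, -0.0783 and -0.0172 in astrocytes). Those between differently numbered microglia libraries were -0.0225 to -0.0001. The highest in astrocytes was 0.1261, between the 2 day 9 libraries. Whether same-numbered libraries were paired was not tested. With the replicate block the WT cell type contrast called 34 members and the KO contrast 35. In the WT libraries alone it called 30, with Ccnb1, Ccne2, Cdc45, Cdca3, Rrm2 and Tyms lost and Cdc6 gained. In the KO libraries alone the KO contrast called 38. The cause of these shifts was not tested. Depth is unknown, and 2 day 9 libraries limit the age comparison.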
